A study of Mus musculus with 24 samples.

Results

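Histone H3 acetylated at lysine 9 (H3K9ac) was mapped in spheroids of 4T1, a mouse mammary carcinoma cell line, that lacked CPT1a and were grown for 5 days with or without acetate. Of the 24 samples in the series, 12 carry a list of called H3K9ac peaks, and 6 of these make up the comparison described here. The 3 CPT1a knockout libraries came from spheroids in medium with 75 µM palmitate, and the 3 CPT1a knockout+Ac libraries from spheroids whose labels give 5 mM acetate. The study's text places both arms of this comparison in palmitate, whereas the labels of the acetate samples name only acetate. If the labels are complete, a lack of palmitate cannot be told apart from the addition of acetate. All 6 carried a disrupted Cpt1a, made with an inducible Cas9 and guides against 2 exons, and the guide of each library was not stated. The 3 scramble control libraries, with an intact Cpt1a and the same palmitate medium, give the level of each promoter without the knockout. A fit of all 12 libraries also holds 3 of spheroids that lack KAT2a, again in that medium. Replicates were numbered 1 to 3 in each group, and the study describes its data in general as coming from biological replicates. Whether these 3 libraries were separate cultures is not spelled out for each sample, and if they were not, the p-values measure only the spread between libraries.

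CPT1a loads long-chain fatty acids onto carnitine for import into mitochondria, where their oxidation yields acetyl-CoA. Acetyl-CoA is the donor that histone acetyltransferases use to place H3K9ac, a mark of active promoters, and KAT2a (also called GCN5) is one of the main enzymes for this residue. Acetate enters the same pool without CPT1a, because ACSS2 joins it to coenzyme A in the cytosol and nucleus. The study used acetate to ask whether a supply of acetyl-CoA that bypasses CPT1a restores acetylation that depends on palmitate oxidation, with NF-kB and its p65 subunit, encoded by Rela, as the pathway of interest. NF-kB is held in the cytosol by inhibitor proteins and, once freed, switches on genes for cytokines, adhesion molecules and survival factors.

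The libraries differed in depth within each group, and each acetate library had more peaks at promoters than any CPT1a knockout library without it. The CPT1a knockout libraries had 20935, 23522 and 16201 peaks, and the acetate libraries 22577, 22351 and 24594. The background that the peak caller assumed, in fragments per position, was recovered from each list as a measure of depth, and was 1.70, 1.56 and 0.554 without acetate against 1.45, 0.660 and 1.91 with it. CPT1a knockout replicate 3 and acetate replicate 2 were therefore shallow, and they had narrower promoter peaks (median 1221 and 1275 bp) than the other 4 libraries (1712 to 1767 bp). Peaks that reached within 1 kb of where transcription of a protein-coding gene starts (the TSS) made up 57.9%, 54.7% and 76.2% of each list without acetate and 58.6%, 64.0% and 54.6% with it. The means of 62.9% ± 11.6 and 59.1% ± 4.68 (SD, n = 3 each) did not differ beyond the spread of the replicates (exact permutation test, two-sided p = 0.8), and without knockout replicate 3 the difference of -3.86 percentage points became 2.78. More separate peaks touched a promoter in each acetate library (13238 to 14295) than in any library without acetate (12123 to 12862), with p = 0.1 in the exact permutation test, which can go no lower with 3 against 3. The number of genes with a promoter peak did not separate the groups (exact permutation p = 0.9). It was 11448, 11556 and 10950 without acetate and 11338, 11173 and 11458 with it. Distal peaks were narrower in each acetate library (median 362 to 406 bp against 424 to 462 bp, exact permutation p = 0.1).

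**Figure D1:**
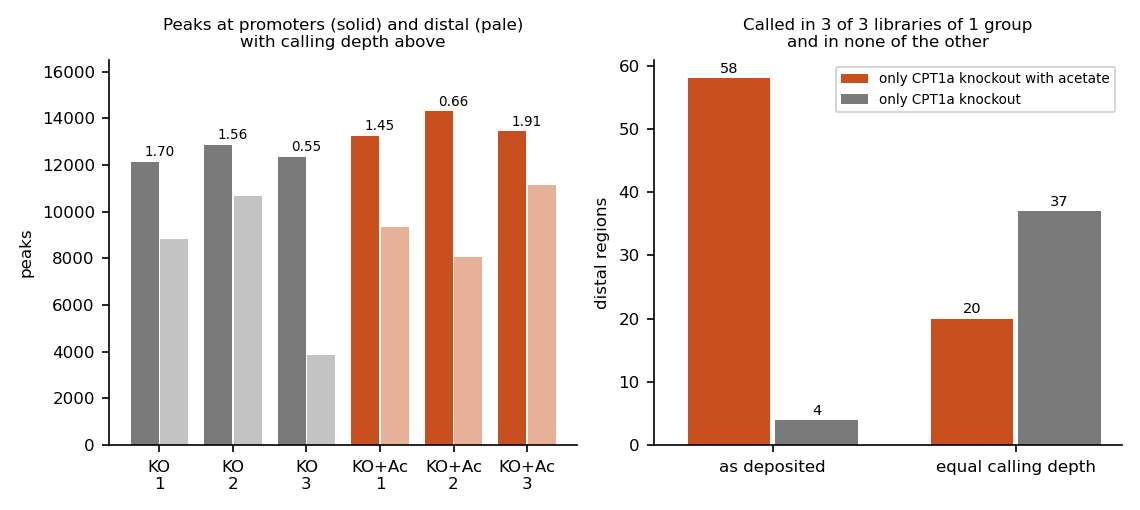
Left, the number of peaks at promoters (solid bars) and at distal sites (pale bars) in each library, with the recovered background depth printed above. Right, the number of distal regions called in all 3 libraries of one group and none of the other, as deposited and at an equal calling depth with a -log10 p of 5 or more. The distal count with acetate was 58 as deposited and 20 at equal depth, and the distal count without acetate went from 4 to 37.

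The promoter peaks included those of epithelial genes, as the labelled carcinoma line would carry. Of 22 epithelial genes 18 had a promoter peak in at least 1 of the 6 libraries, against 0 of 12 leukocyte markers and 0 of 6 endothelial markers. Over all protein-coding genes 11689 of 21755 had one, and of 16 mesenchymal genes 8. Of 7 fibroblast markers 2 had one, Pdgfra and Col1a1.

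Because the fold enrichment of a peak over its background was not scaled between libraries, each promoter was given its rank within its own library. A gene's strongest peak within 1 kb of its TSS was placed on a percentile scale from 0, the weakest, to 100, the strongest. Of 21755 protein-coding genes 11689 had such a peak in at least 1 library, and the 10897 with one in all 6 were ranked and tested, on 9449 distinct peaks. The scale shows the order of promoters and cannot show a gain or loss shared by all of them, so the total amount of H3K9ac was not measured.

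No promoter passed the test between the acetate and CPT1a knockout groups. The moderated test of limma with Benjamini-Hochberg adjustment called 0 promoters higher with acetate and 0 lower (0.0% of those tested in each direction). At an unadjusted p below 0.05 it held 346 higher (3.18%) and 442 lower (4.06%). The 3 acetate ranks all lay above the 3 others at 594 promoters (5.45%) and all below them at 944 (8.66%), which together are 14.1% of those tested. The median difference over all promoters was -0.48 percentile points, with quartiles of -7.35 and 6.71. When all 12 libraries with peaks were fitted together, which adds the scramble and KAT2a knockout groups to the estimate of the spread, 3 promoters of 10777 were called higher (0.0278%) and 2 lower (0.0186%). Across genes, the ranks of the 3 acetate libraries correlated with each other at a Spearman rho of 0.804 to 0.842, those without acetate at 0.674 to 0.766, and pairs across the groups at 0.682 to 0.839. Genes are not independent replicates, and these values are descriptions of 6 libraries that share no samples but differ in depth.

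**Figure D2:**
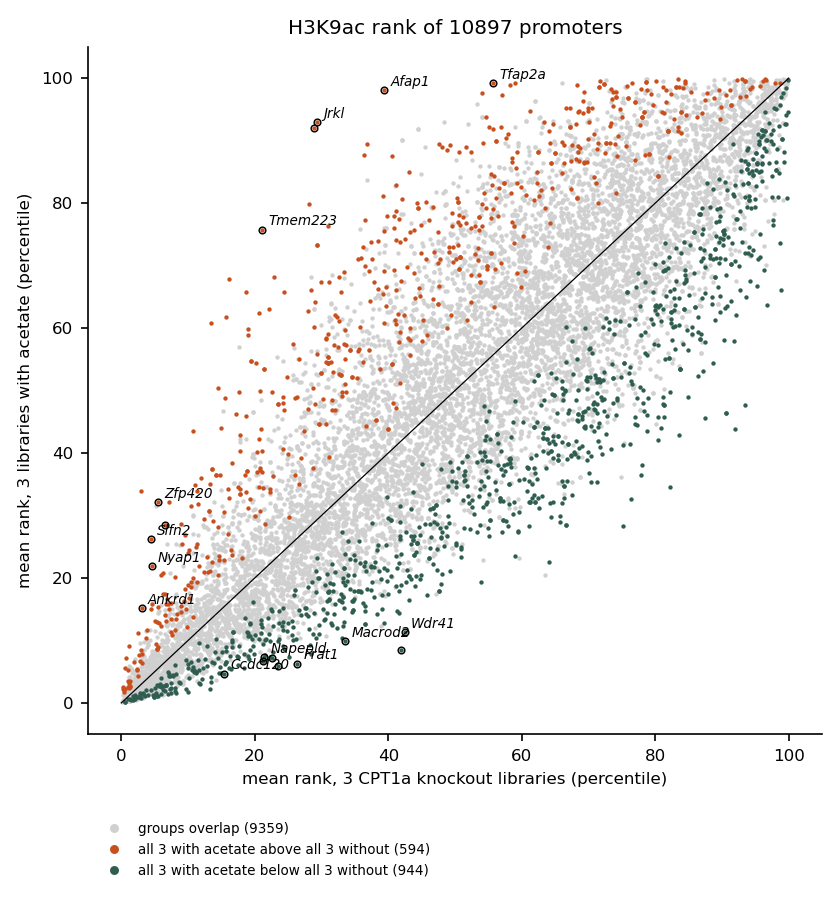
Each point is 1 of 10897 promoters, by its mean rank percentile over the 3 CPT1a knockout libraries (horizontal) and the 3 acetate libraries (vertical), with promoters whose 2 sets of ranks did not overlap in colour. Most points lie along the diagonal, and the non-overlapping ones number 594 above it and 944 below it.

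The 5 promoters called by the 12-library fit were those of Fam120b, Tfap2a and Slfn2, which rose with acetate, and Wdr41 and Frat2, which fell. FAM120B is a coactivator of nuclear receptors, SLFN2 a Schlafen protein of lymphocytes and interferon responses, WDR41 a partner of the C9orf72 complex in autophagy, and FRAT2 a GSK3-binding protein of Wnt signalling. The 250 bases upstream of 4 of these starts are shown because they differ in the density of CpG, the dinucleotide whose clusters mark most promoters of this kind. They were read from the RefSeq copy of GRCm38, 5′ to 3′ on the strand of the gene, and capitals mark each CpG. Fam120b (chr17:15395998-15396247, plus strand) held 14 CpG and Slfn2 (chr11:83064862-83065111, plus strand) held 2. Wdr41 (chr13:94976188-94976437, plus strand) and Frat2 (chr19:41848133-41848382, minus strand) held 29 each. The start of Tfap2a used here is internal to the gene in the annotation, and its sequence is not shown.
Fam120b: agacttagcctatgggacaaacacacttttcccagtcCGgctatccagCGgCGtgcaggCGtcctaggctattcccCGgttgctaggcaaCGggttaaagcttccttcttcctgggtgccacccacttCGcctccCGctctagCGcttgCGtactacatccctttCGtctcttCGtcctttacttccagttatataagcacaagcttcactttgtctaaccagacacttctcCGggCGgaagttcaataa
Slfn2: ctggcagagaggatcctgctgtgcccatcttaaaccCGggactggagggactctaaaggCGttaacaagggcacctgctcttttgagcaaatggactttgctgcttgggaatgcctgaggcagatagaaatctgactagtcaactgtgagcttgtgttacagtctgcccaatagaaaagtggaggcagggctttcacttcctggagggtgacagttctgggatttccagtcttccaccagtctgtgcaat
Wdr41: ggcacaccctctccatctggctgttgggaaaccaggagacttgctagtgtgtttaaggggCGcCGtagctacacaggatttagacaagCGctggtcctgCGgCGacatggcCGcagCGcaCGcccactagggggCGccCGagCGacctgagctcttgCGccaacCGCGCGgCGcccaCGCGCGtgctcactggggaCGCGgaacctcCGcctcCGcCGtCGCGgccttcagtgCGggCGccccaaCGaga
Frat2: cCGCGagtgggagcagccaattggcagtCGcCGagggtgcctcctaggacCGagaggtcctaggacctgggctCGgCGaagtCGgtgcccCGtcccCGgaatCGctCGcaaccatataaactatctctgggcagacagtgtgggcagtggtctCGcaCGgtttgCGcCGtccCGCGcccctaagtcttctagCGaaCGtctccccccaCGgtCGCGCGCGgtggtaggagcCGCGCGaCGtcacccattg

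At Fam120b the rank was 30.8, 45.2 and 10.5 without acetate and 90.1, 88.1 and 98.1 with it. The ranges did not overlap, and the scramble libraries, at 91.3, 95.8 and 66.9, also lay above the knockout. The difference was 63.3 percentile points (SE 12.5, adjusted p = 0.451 in the 6-library fit and 0.0467 in the 12-library fit, limma). Tfap2a, which encodes the AP-2 alpha transcription factor of epithelial cells, ranked 50.9, 68.0 and 48.3 without acetate and 99.8, 98.3 and 99.8 with it. All 3 acetate libraries placed it near the top of the scale, as did the scramble libraries at 99.8, 100.0 and 100.0 (12-library adjusted p = 0.0286). Slfn2 ranked 7.68, 3.23 and 2.33 without acetate and 23.0, 22.0 and 33.7 with it (12-library adjusted p = 0.0422). Here the scramble libraries, at 10.8, 0.0415 and 4.19, lay with the knockout, so the acetate ranks stood above both groups.

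Further promoters ranked higher in all 3 acetate libraries, among them those of Spp1, Ankrd1 and Afap1. None of them passed the test, and they are given as the non-overlapping promoters with the smallest unadjusted p. Spp1, which encodes osteopontin, ranked 3.42, 9.83 and 6.49 without acetate and 30.2, 29.9 and 25.4 with it. The shift of 21.9 points (SE 3.87, adjusted p = 0.388) left it below the scramble libraries, at 53.2, 41.1 and 77.9. Ankrd1, a target of YAP, stood at 1.59, 5.56 and 1.99 against 14.3, 15.8 and 15.2, again below scramble at 57.2, 39.3 and 55.2. Afap1, an actin-crosslinking protein, went from ranks of 37.4, 53.3 and 27.4 to 95.9, 99.4 and 99.0. In this gene the acetate libraries were level with or above scramble, which ranged from 40.0 to 98.0. The remaining ones were Zfp420 (2.67 to 10.7 against 27.9 to 37.0), Jrkl (18.7 to 36.1 against 90.3 to 94.6), Tmem223 (17.1 to 27.5 against 70.0 to 85.5) and Nyap1 (1.03 to 6.85 against 16.6 to 25.3). Jrkl and Ccdc82 shared a peak in some of the libraries, and Ccdc82, at 18.7, 92.2 and 34.1 without acetate, overlapped the acetate ranks of 90.3, 95.0 and 93.9.

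Both Frat paralogs were among the promoters that ranked lower with acetate. Frat2 stood at 47.1, 45.3 and 33.5 without acetate and at 14.1, 8.82 and 2.43 with it. The acetate and scramble libraries (1.2, 6.58 and 9.0) both lay below all 3 knockout libraries, and the difference was -33.5 points (SE 6.22, adjusted p = 0.388 with 6 libraries and 0.0286 with 12). Frat1 ranked 27.0, 26.4 and 25.7 without acetate and 7.03, 9.02 and 2.84 with it, with scramble at 7.43, 7.53 and 3.98. Wdr41 ranked 45.9, 37.9 and 43.5 against 10.8, 11.2 and 12 (12-library adjusted p = 0.0422), and scramble lay between at 13.9 to 24.9. The 3 acetate values of Wdr41 spanned little more than 1 point.

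The other lower-ranked promoters included those of several enzymes and of a nutrient-sensing complex. Kptn, which encodes kaptin of the KICSTOR complex that restrains mTORC1, went from 23.0, 30.3 and 17.2 to 4.23, 6.70 and 6.95. Scramble stood lower still for Kptn, at 2.43, 2.14 and 2.62. Macrod2 ranked 27.0 to 37.0 against 3.55 to 15.2, Napepld, the enzyme that releases N-acylethanolamines, 19.7 to 23.6 against 5.13 to 9.51, and Man2a2, a mannosidase of N-glycan processing, 16.7 to 26.0 against 5.67 to 8.97. Gstt3, a glutathione transferase, ranked 18.4 to 25.7 against 3.25 to 8.81, and Ccdc120, on the X chromosome, 13.2 to 18.3 against 4.35 to 4.96. Most of these promoters lay in the lower part of the scale in both groups.

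**Figure D3:**
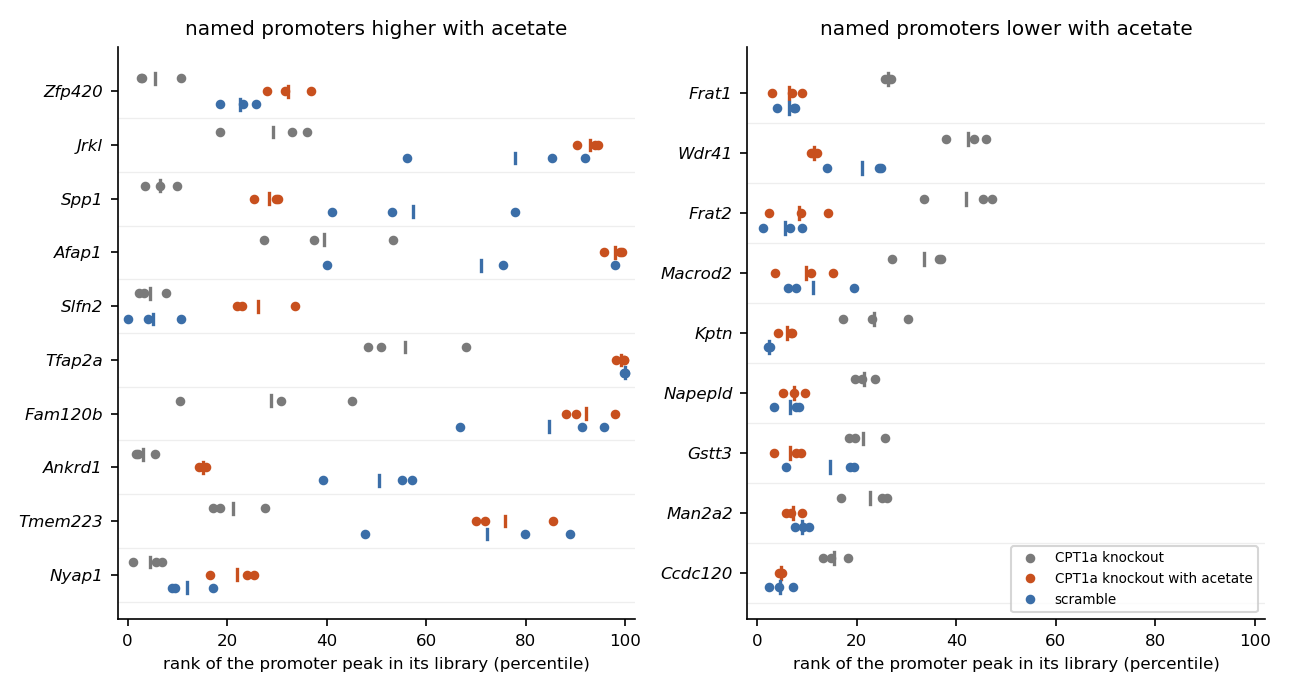
Rank percentile of the named promoters in each library: CPT1a knockout in grey, knockout with acetate in orange, scramble in blue, with vertical ticks at the group means. Grey and orange points do not overlap in any row, which the choice of rows fixes. In Slfn2 the blue points lie with the grey ones, and in Spp1 and Ankrd1 they lie beyond the orange ones.

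None of the genes that the study acted on or asked about passed the test, though the ranks of Kat2a did not overlap. Cpt1a itself ranked 30.1, 48.2 and 59.4 without acetate and 41.2, 59.2 and 74.1 with it, a difference of 12.3 points (SE 13.4, adjusted p = 0.836). The edit lies in exons, so the promoter mark does not test the knockout. Rela differed by 4.14 points (adjusted p = 0.940). Acss2, the enzyme that uses acetate and whose promoter peak is shared with Ggt7, ranked 48.7, 24.7 and 27.7 against 23.4, 25.4 and 28.4, and Acly, which makes cytosolic acetyl-CoA from citrate, 75.4, 70.2 and 90.5 against 56.8, 87.1 and 40.8. Both overlapped between the groups. Kat2a ranked 36.4, 44.2 and 61.4 without acetate and 26.7, 29.1 and 30.2 with it. These did not overlap, at a difference of -18.6 points (SE 9.58, adjusted p = 0.678), and scramble was lower again at 6.77, 8.62 and 6.56.

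NF-kB target genes ranked higher with acetate as a list, although none passed the test. Of 31 targets 21 had a promoter peak in some library and 16 in all 6, and 13 of the 16 had a higher mean rank with acetate, 3 of them without overlap (Cd44, Ier3 and Vcam1) and 0 lower without overlap (18.8% and 0.0%, beside 5.45% and 8.66% of all promoters). The median difference was 13.1 points, against -0.48 over all promoters. Cd44, the hyaluronan receptor, ranked 48.5, 70.6 and 49.4 without acetate and 78.6, 82.7 and 81.4 with it, and scramble stood at 90.4, 87.7 and 83.0. Ier3, a survival factor whose promoter peak is shared with Flot1, ranked 81.6, 93.9 and 52.4 against 96.3, 98.8 and 95.5. Vcam1, a leukocyte adhesion molecule, moved from 8.86, 9.69 and 8.18 to 13.4, 14.2 and 16.1, with scramble from 18.6 to 50.6. Thus the acetate ranks of Cd44 and Vcam1 lay between the other groups.

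Among the secreted factors and enzymes of the list, the groups overlapped. Csf1, the macrophage growth factor, ranked 43.0, 54.0 and 76.8 without acetate and 60.5, 96.1 and 87.4 with it. Csf3, the granulocyte growth factor, ranked 49.6, 66.2 and 89.5 against 85.7, 83.3 and 95.5. Plau, the urokinase protease, ranked 3.83, 45.2 and 9.91 against 38.2, 33.2 and 46.6, while its receptor Plaur went the other way, at 76.6, 35.0 and 55.4 against 46.4, 26.8 and 47.8. Sod2, the mitochondrial superoxide dismutase, had the largest difference of the list at 26.5 points (SE 12.8), and Bcl2l1, which encodes BCL-XL, the lowest at -20.9 (SE 13.3). The median of the list's ranks was 49.0, 59.7 and 50.9 in the CPT1a knockout libraries, 60.8, 66.5 and 63.0 in the acetate libraries and 62.0, 59.0 and 69.4 in the scramble libraries. Its difference of 13.1 became 7.98 when peaks were ranked by -log10 p and 7.11 without knockout replicate 1.

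**Figure D4:**
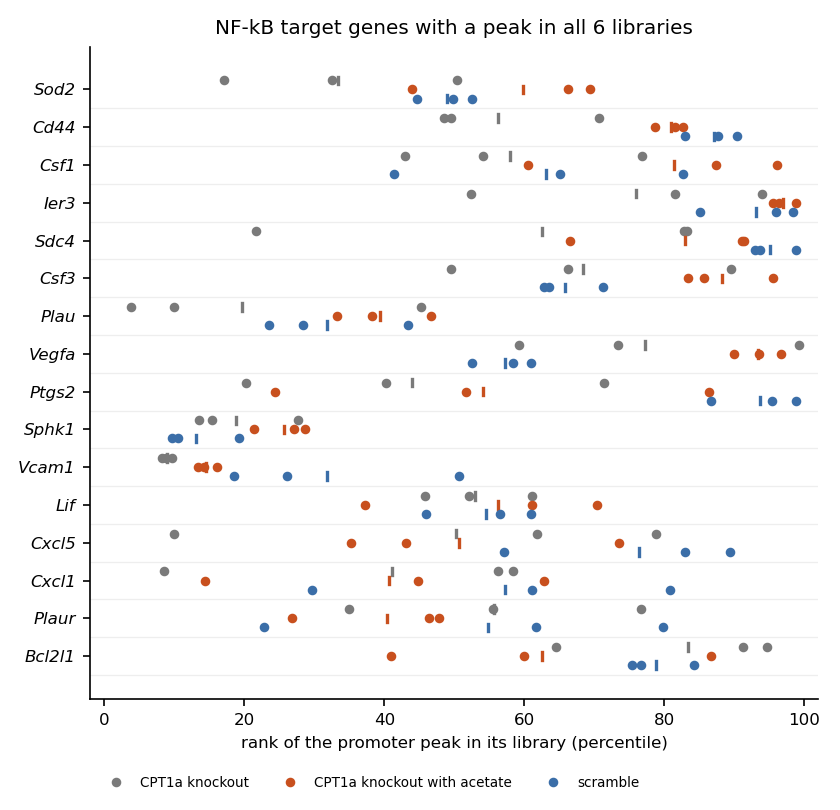
Rank percentile of the 16 NF-kB target promoters with a peak in all 6 libraries, with CPT1a knockout in grey, acetate in orange, scramble in blue and group means as vertical ticks. The orange mean lies to the right of the grey mean in 13 of 16 rows, and the points of the 2 groups separate in 3.

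The chemokine promoters of Cxcl1 and Cxcl5 are shown because they were the only tested targets with an NF-kB motif, written as GGG, any 2 bases and TTTCC and searched on both strands, within 250 bases upstream of the start. Capitals mark each match in the GRCm38 sequences of Cxcl1 (chr5:90890993-90891242, plus strand) and Cxcl5 (chr5:90759128-90759377, plus strand). This match is a description of letters and not of binding, and 1.63% of all tested promoters held one.
Cxcl1: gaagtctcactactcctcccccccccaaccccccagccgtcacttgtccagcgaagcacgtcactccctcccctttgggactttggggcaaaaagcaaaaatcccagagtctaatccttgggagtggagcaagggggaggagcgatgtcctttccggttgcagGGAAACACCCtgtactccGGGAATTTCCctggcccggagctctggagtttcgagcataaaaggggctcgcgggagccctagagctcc
Cxcl5: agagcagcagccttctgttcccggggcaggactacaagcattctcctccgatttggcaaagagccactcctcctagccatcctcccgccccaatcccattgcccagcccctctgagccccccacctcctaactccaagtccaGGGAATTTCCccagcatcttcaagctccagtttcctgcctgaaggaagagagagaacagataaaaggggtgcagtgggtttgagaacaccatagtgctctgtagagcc

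At neither chemokine promoter was a difference detected. Cxcl1 ranked 56.2, 58.4 and 8.54 without acetate and 44.8, 62.7 and 14.4 with it, a difference of -0.434 points (SE 16.4), and Cxcl5 ranked 61.8, 78.7 and 9.98 against 43.1, 73.5 and 35.3, a difference of 0.428 (SE 18.4). With these SEs, differences of the size seen at Cd44 would also have been within the error. Of the 11 subunits and inhibitors of NF-kB, 7 had a higher mean with acetate. The only one without overlap was Nfkbiz, the nuclear inhibitor IkB-zeta, at 94.7, 88.1 and 91.8 against 84.9, 77.2 and 58.6. This is 9.09% of the list, beside 8.66% of all promoters lower. Nfkb1 was near the top of the scale in every library, from 98.7 to 99.9. Of 26 upstream signalling genes Tnip1 ranked higher and Ripk1 and Tab3 lower without overlap, or 3.85% and 7.69%, near the shares of all promoters. The medians of both lists changed sign when single libraries were left out.

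Genes of acetyl-CoA supply and of fatty acid oxidation did not rank higher with acetate as lists. Of 12 tested genes of acetyl-CoA supply 4 had a higher mean and 8 a lower one, with a median of -4.99 points that became -0.617 without knockout replicate 1. The only one without overlap was Slc25a1, the mitochondrial citrate carrier, at 27.3, 18.6 and 37.2 without acetate and 14.0, 15.4 and 16.2 with it. That is 8.33% of the list, near the 8.66% of all promoters lower. Of 20 fatty acid oxidation genes Acadm, the medium-chain acyl-CoA dehydrogenase, stood higher without overlap (7.54, 21.6 and 11.7 against 41.0, 23.9 and 47.7) and Acsl4, an acyl-CoA synthetase, lower (84.0 to 89.4 against 52.8 to 82.2). Each is 5.0% of the list, beside 5.45% of all promoters higher and 8.66% lower. The median of that list was -3.81, or -1.18 without knockout replicate 2, and of the 5 tested genes of the carnitine shuttle none separated. The largest differences in lipid oxidation were those of Hadha, the trifunctional protein, at 25.5 points (SE 14.1), and Acsl5, another acyl-CoA synthetase, at -32.9 (SE 15.7), both with overlapping groups.

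Among promoters of histone acetyltransferases and of the SAGA complex, which contains KAT2a, more ranked lower than higher. Of 27 genes 19 had a lower mean with acetate, and 8 were lower without overlap (29.6%, beside 8.66% of all promoters), namely Crebbp, Ep300, Hat1, Kat2a, Kat5, Sgf29, Supt20 and Trrap. The median was -3.74 points, and it reached -7.97 without knockout replicate 3. Of these 8, Hat1, which acetylates new histone H4, had the largest difference, at 95.3, 79.4 and 79.9 without acetate and 44.5, 56.2 and 68.9 with it. Ep300, which encodes p300, separated by little, at 98.6, 99.1 and 98.4 against 97.7, 92.2 and 97.4. The adaptor Tada3 and Taf5l of the same complex ranked higher without overlap (7.41%, beside 5.45% of all promoters). Taf5l stood at 73.9, 53.5 and 67.7 against 85.4, 89.4 and 89.3. Of 17 deacetylases and sirtuins only Sirt1 separated, with a difference of -16.9 points (5.88% lower, beside 8.66% of all promoters), and of 13 readers of acetyl-lysine none did.

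**Figure D5:**
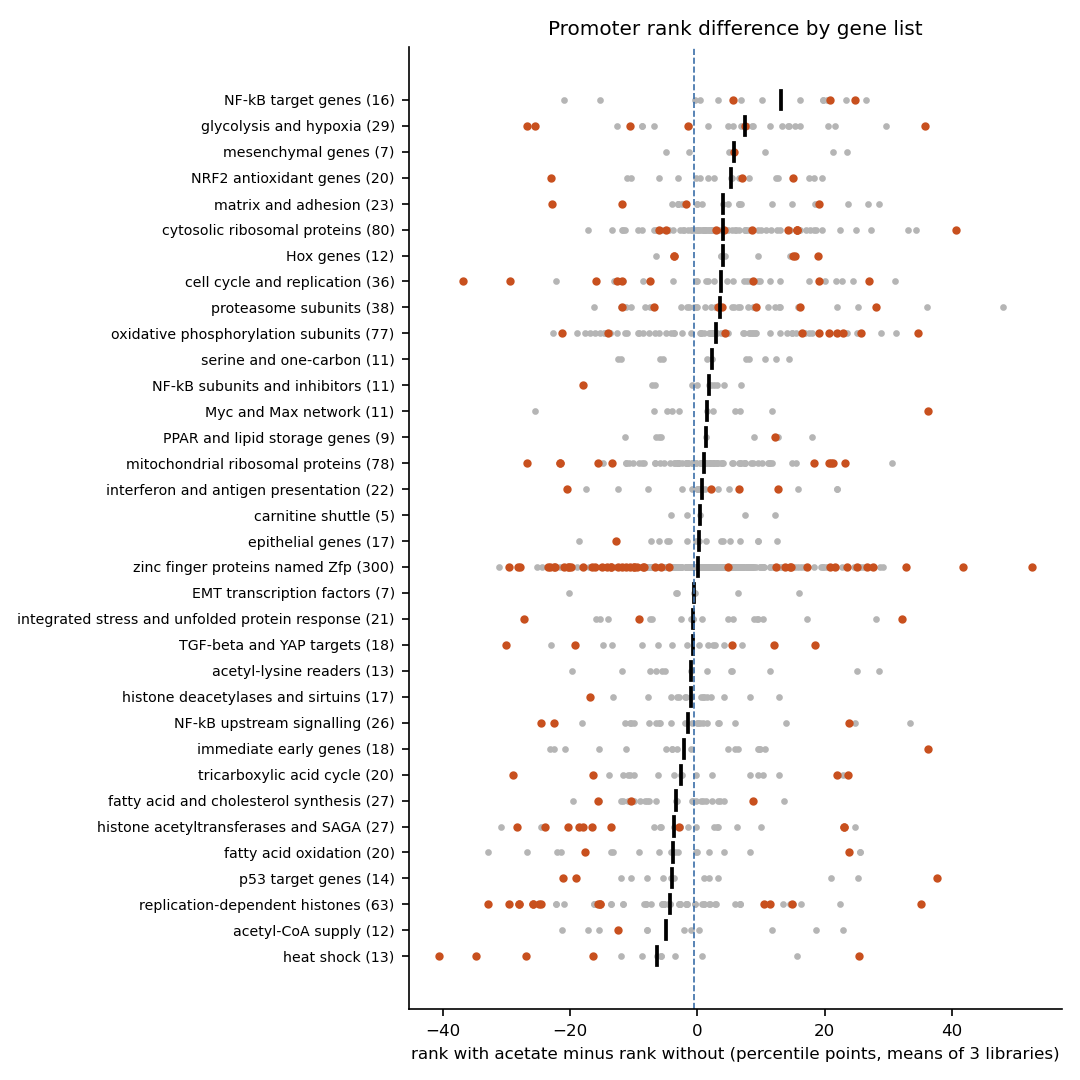
Difference in mean rank percentile, acetate minus CPT1a knockout, for the tested members of each gene list: orange points are members whose groups did not overlap, grey points the others, the black bar the list median and the dashed line the median of all promoters. NF-kB targets have the highest median of the lists with at least 10 members, at 13.1, and heat shock genes the lowest, at -6.31.

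The heat shock and the glycolysis lists had medians of opposite sign. Of 13 heat shock genes 10 had a lower mean, and Dnaja1, Dnajb1, Hsf2 and Hsp90aa1 were lower without overlap while Hsf1, the regulator of the response, was higher (30.8% lower and 7.69% higher, beside 8.66% and 5.45% of all promoters). Dnajb1, a co-chaperone, ranked 79.8, 69.0 and 92.6 without acetate and 49.7, 65.7 and 21.8 with it. Dnaja1, of the same family, ranked 82.3, 90.7 and 77.6 against 63.6, 45.1 and 20.0. The median of -6.31 became -4.17 at equal calling depth. Of 29 genes of glycolysis and hypoxia 19 had a higher mean, with a median of 7.44 points that became 2.78 without knockout replicate 3. Without overlap Egln3 and Ndrg1 were higher (6.9%) and Hif1a, Pdk1, Pfkfb4 and Pfkl lower (13.8%), beside 5.45% and 8.66% of all promoters. Ndrg1 ranked 31.8, 57.9 and 43.2 against 77.4, 98.4 and 64.5, and Hif1a, which drives the hypoxic response, ranked 91.0, 85.0 and 76.4 against 74.2, 42.2 and 55.7. Myc, the growth regulator, was the only one of 18 immediate early genes to separate upwards (5.56%, beside 5.45% of all promoters). It went from 30.2, 68.0 and 68.7 to 89.5, 95.2 and 90.9 (difference 36.3, SE 11.5, adjusted p = 0.678).

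Large housekeeping families shifted by few points, and their non-overlapping members are to be read beside 5.45% of all promoters higher and 8.66% lower. Of 80 cytosolic ribosomal protein genes 58 had a higher mean, 8 were higher without overlap and 2 lower (10.0% and 2.5%), with a median of 4.02 points that became 0.761 without knockout replicate 1 and 2.11 without acetate replicate 2. Rpl31 had the largest difference, at 37.5, 44.6 and 92.8 without acetate and 99.3, 99.1 and 98.5 with it. Oxidative phosphorylation subunits (77 tested, 8 or 10.4% higher and 2 or 2.6% lower, median 2.87, or 1.16 without knockout replicate 2) and proteasome subunits (38 tested, 5 or 13.2% higher and 2 or 5.26% lower, median 3.56) also had positive medians, and mitochondrial ribosomal proteins were balanced at 5 and 5 of 78 (6.41% each). Replication-dependent histone genes went the other way. Of 63 genes on 34 distinct peaks 4 were higher and 11 lower without overlap (6.35% and 17.5%), with a median of -4.37 that became -0.0114 without acetate replicate 2 and -2.79 without knockout replicate 1. Many of these neighbours share a peak and are not independent. Of 36 cell cycle genes 21 had a higher mean, with a median of 3.64 that became -2.51 without knockout replicate 3, and without overlap Cdk4, E2f1 and Top2a were higher (8.33%) and 6, Pcna and Rrm1 among them, lower (16.7%). Mcm5, a subunit of the replicative helicase, had the highest difference of that list, with overlapping groups, at 54.5, 93.8 and 40.1 without acetate against 91.3, 95.8 and 94.4 with it. Gmnn, which encodes the replication inhibitor geminin, had the lowest, at 78.4, 58.8 and 59.9 against 28.8, 39.6 and 18.2.

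Markers of cell state overlapped for the most part. Of 17 tested epithelial genes Epcam alone separated (5.88% lower, beside 8.66% of all promoters). It ranked 32.5, 35.2 and 27.5 without acetate and 17.1, 20.2 and 19.7 with it, and scramble stood at 11.6 to 14.4. Of 7 tested mesenchymal genes 5 had a higher mean, with a median of 5.83 points. Sparc, a matrix glycoprotein, was higher without overlap (14.3%, beside 5.45% of all promoters). Vim, which encodes vimentin, differed by 23.5 points (SE 16.5) with overlap. None of the 7 tested transcription factors of the epithelial-mesenchymal transition separated. Of 18 TGF-beta and YAP genes Ankrd1, Ccn1 and Ski were higher and Smad4 and Tgfbr1 lower (16.7% and 11.1%, beside 5.45% and 8.66% of all promoters). Ccn1 ranked 8.46, 8.78 and 11.7 against 13.8, 18.1 and 13.3, and Smad4 ranked 88.4, 72.0 and 76.4 against 60.8, 34.6 and 51.0.

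Promoters that ranked lower with acetate were richer in GC than those that ranked higher. The median GC content of the 500 bp on each side of the TSS was 62.6% at the 944 lower promoters, 59.0% at the 594 higher ones and 60.3% over all tested, and the ratio of observed to predicted CpG was 0.810, 0.710 and 0.757. With the promoters in 10 bins of GC content, the median difference went from 1.12 points in the lowest bin to -3.43 in the highest. The part of GC content in the ranks of single genes was not tested. With the trend subtracted the NF-kB target median was 13.5, and that of cytosolic ribosomal proteins was 1.5. In the 250 bases upstream, the AP-1 motif (TGANTCA, both strands) was found at 4.38% of the higher and 2.12% of the lower promoters, with 3.49% over all, and the GC box (GGGCGGG, both strands) at 41.4%, 49.4% and 46.8%. These shares are descriptions of promoters chosen by their ranks.

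Few promoters were called in one group only. Peaks in 3 of 3 acetate libraries and 0 of 3 without were found at 3 of 11689 promoters (0.0257%), and the reverse at 1 (0.00856%). Piwil4, which encodes a PIWI protein of the germ line, had folds of 5.07, 4.55 and 4.31 with acetate, and the nearest peaks without acetate lay 28863 to 43041 bp away. The other pair, Gm20683 and Gm28374, had peaks without acetate just outside the 1 kb window, 1186 to 1334 bp and 1326 to 1811 bp from the TSS. The gene model Gm2237 was called only without acetate, at folds of 6.09, 7.90 and 4.58. With all lists scaled to 1 calling depth and kept at a -log10 p of 5 or more, the counts were 5 and 13, and with a minimum -log10 q of 5 alone they were 3 and 3.

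The width of promoter peaks changed at 4 genes. With each library's median log2 width subtracted, limma called the peaks of 0 genes wider and of 4 narrower with acetate (0.0% and 0.0367% of 10897). The adjusted p of the 4 genes was 0.0320, and 303 and 317 genes had an unadjusted p below 0.05 in that test (2.78% and 2.91%). Cdk5, a neuronal kinase, and Slc4a2, an anion exchanger, share 1 peak, which spanned 4535, 4695 and 2766 bp without acetate and 1428, 1496 and 1354 bp with it (log2 difference -1.58). The peak of Mcur1, a regulator of mitochondrial calcium uptake, fell from 2372, 2507 and 1816 bp to 1089, 879 and 1258 bp (-1.18), and that of Rims2, a synaptic scaffold, from 1949, 2341 and 1224 bp to 736, 556 and 812 bp (-1.48). The width is that of 1 called interval, and a signal split into several intervals counts as narrow. Counted as covered bp within the 1 kb window, no promoter was called narrower and the difference of Cdk5 was 0.02. No peak was called narrower with a replicate block, without centring, or without acetate replicate 1 or knockout replicates 1 or 2. Of the 10897 promoters, widths without overlap were wider at 682 and narrower at 548 with acetate. Without centring these counts were 941 and 34, so their balance follows the centring. Notch4, whose peak is shared with Gpsm3 and Pbx2, spanned 1723, 2130 and 1372 bp against 7348, 3147 and 7662 bp (1.58, adjusted p = 0.220). Map3k3, a kinase that acts upstream of NF-kB and MAP kinases, spanned 1131, 1005 and 841 bp against 3470, 1930 and 2329 bp (1.22, adjusted p = 0.220), and in covered bp it differed by -0.04.

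At distal regions, which overlap no promoter window, the groups did not separate by the test. Of 13845 merged regions 2419 were called in all 6 libraries, and limma called 0 higher and 0 lower (0.0% each, with 82 and 86 at an unadjusted p below 0.05, or 3.39% and 3.56%). A fit of all 12 libraries, on 2290 regions, also gave 0 and 0, with 107 (4.67%) and 89 (3.89%) at an unadjusted p below 0.05. Without overlap, 138 ranked higher (5.7%) and 183 lower (7.57%). A region within Smcr8 (chr11:60779165-60782275) ranked 21.3, 6.70 and 7.57 without acetate and 61.2, 54.0 and 53.7 with it among distal regions (adjusted p = 0.546). SMCR8 belongs to the same autophagy complex as WDR41. The region with the smallest p among those that ranked lower lies within Arid1b (chr17:5137718-5138980), a chromatin remodeller, at 29.7, 41.1 and 35.9 against 2.96, 1.86 and 2.36. Scramble stood with the knockout there, at 45, 56.4 and 50.4.

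Calls at distal regions changed with the depth and threshold of the lists. There were 58 regions called in all 3 acetate libraries and none of the others (0.419% of 13845) and 4 of the reverse kind (0.0289%). Scaling to 1 depth with a -log10 p of 5 or more gave 20 and 37, a -log10 q of 5 or more alone gave 41 and 4, and without the shallow knockout replicate 3 the regions called only without acetate numbered 452. The median distance of the 58 to the nearest TSS was 2425 bp and 79.3% lay within a gene, against 36.8% of the regions called in all 6 libraries. The 58 had a median width of 543.5 bp and a median highest fold of 5.63, against 1525 bp and 14.2. The contrast thus sets narrow, weak calls beside wide, strong ones. In scramble, 28 of the 58 were called in all 3 libraries and 12 in none, as were 5685 and 3992 of the 13845. They included regions at Tacc3, Bcl9l and Kifc1, and 1 in Wwtr1 (chr3:57571609-57572168), which encodes the YAP partner TAZ, at folds of 6.52, 4.82 and 5.50.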

How the data were processed

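H3K9ac was profiled by ChIPmentation, in which the Tn5 enzyme tags chromatin on antibody beads. The submitters' processing notes name FastQC, Bowtie2, SAMtools, deepTools and MACS2 with the builds mm10 and dm6, whereas the study's methods name BWA as the aligner, and which one made these files is not given in the sources used here. The deposited lists give each peak's position, its fold enrichment over background (a ratio that the authors' peak caller computed per library, with no scaling between libraries), and its -log10 p and -log10 q, with a score that is a rounded multiple of the last. The lowest -log10 q in the files was 2.00. The 12 input libraries are not analysed here, and no spike-in value was used. The labels and the methods give different catalogue numbers for the antibody.

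Promoters were 1 kb either side of any protein-coding TSS in GENCODE vM21, and peaks on the Y chromosome were set aside. Fold enrichments were turned into rank percentiles within each library, over genes with a promoter peak in all 6, and log2 peak widths were centred on the library's median. Both were tested with limma 3.58.1 in R 4.3.3 (trend on the mean, two-sided, Benjamini-Hochberg), and single values per library with an exact permutation test over the 20 assignments, whose smallest p is 0.1. The scripts were tested on simulated data. The calling depth was recovered by inverting the Poisson formula of the peak caller, which gave a pileup for all or, in the lowest library, 99.1% of the peaks, and the equal-depth setting scaled all to 0.55 and kept peaks at -log10 p of 5 or more. Scramble ranks were set within each scramble library over the same promoters. Named promoters were the 10 non-overlapping ones with the smallest p in each direction, together with the largest rise and fall of each list. The genes and the 39 gene lists were chosen with earlier results of these data known. Aldoa, Ddit3, Atp5o and Pcdha11 have 2 gene IDs each and count as 2. Genes that share a peak share its value. Same-numbered libraries of the 2 groups did not deviate together (r = 0.067, -0.0085 and -0.032), so the numbers were not used as pairs. Some promoters that met the rule for named genes are not reported here.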

Additional observations from a re-analysis of the deposited data

How the results depend on the processing

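No promoter was called by limma in the 6-library fit, its leave-one-out fits or the replicate block (0 higher and 0 lower), and 3 higher and 2 lower were called when all 12 libraries were fitted. Promoters without overlap numbered 894 higher and 1035 lower when ranked by -log10 p, a more even split than 594 and 944. They numbered 1008 to 1205 higher and 1389 to 1822 lower with each library left out in turn. Genes with a peak called wider numbered 0 to 3 and narrower 0 to 5 with each library left out, Notch4 among the wider without acetate replicate 2. Narrower peaks numbered 0 with covered bp, with no centring and with the replicate block, and in covered bp the log2 differences of Cdk5 and Map3k3 were 0.0227 and -0.0408, as the window caps the width. Distal regions kept 0 and 0 under the replicate block, which changed no other call. Promoters called only with acetate numbered 1 in a 500 bp window, 5 at equal calling depth with a -log10 p of 5 or more and 3 to 11 with a library left out, and those called only without it 3 at a -log10 q of 5 or more, 13 at equal depth and 1 to 52. Distal regions called only with acetate numbered 20 at equal depth, 33 with peaks within 500 bp merged and 59 to 366 with a library left out, and those only without it 37 and 4 to 452. The difference in the share of peaks at promoters became 2.78 percentage points without knockout replicate 3 (p = 0.5, exact permutation) and was -7.98 at the lowest with another library left out. The cause of these shifts was not tested, save that fewer libraries separate more often.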

Other observations

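Promoters on the X chromosome ranked lower with acetate more than those elsewhere, a pattern noticed after the values were seen and not tested. Of 299 tested X-linked promoters 58 were lower without overlap (19.4%, beside 8.66% of all promoters) and 7 higher (2.34%). The median rank of X-linked promoters was 26.0, 23.2 and 25.4 in the acetate libraries, 36.6, 27.0 and 28.1 in the CPT1a knockout libraries and 32.3, 28.4 and 32.3 in the scramble libraries. It was 22.3, 24.3 and 25.9 in the KAT2a knockout libraries, close to the acetate values. The median difference was -4.29 points, -4.69 with the GC trend subtracted, -3.15 at equal calling depth, -1.40 when peaks were ranked by -log10 p, and -5.93 to -1.62 when each library in turn was left out, the weakest without knockout replicate 1 and next -2.51 without acetate replicate 2. Among 49 tested distal regions of the X chromosome 14.3% were lower without overlap and 0.0% higher, with a median of -4.69, beside 7.57% and 5.7% of all distal regions, and 1 autosome with 68 regions tested had a share of 14.7% lower, so the share was not particular to X.

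Some further genes and lists fall outside the comparisons above, and their members without overlap are to be read beside 5.45% of all promoters higher and 8.66% lower. Of 22 tested genes for interferon responses and antigen presentation B2m, Isg15 and Usp18 ranked higher without overlap (13.6%) and Irf2 lower (4.55%), and 15 had a higher mean. Of 20 NRF2 antioxidant genes 14 had a higher mean, with Keap1 and Tkt higher (10.0%) and Srxn1 lower (5.0%) without overlap and a median of 5.35 points that became 1.52 without knockout replicate 1. Of 14 p53 targets Bax, a pro-apoptotic protein, ranked higher (23.7, 35.1 and 26.3 without acetate and 62.6, 61.5 and 74.0 with it) and Aen and Trp53 lower, or 7.14% and 14.3%. Of 21 genes of the integrated stress and unfolded protein responses, with a median of -0.68, Atf4 and Dnajb9 were lower and Asns, the asparagine synthetase, higher without overlap (9.52% and 4.76%). Asns ranked 23.1 to 50 without acetate and 60.3 to 77.3 with it. Of 12 tested Hox genes Hoxa3, Hoxa6 and Hoxa7 were higher and Hoxd3 and Hoxd4 lower, but the 12 genes lie on 5 distinct peaks and are not independent. Of 300 zinc finger genes named Zfp 15 were higher and 30 lower without overlap (5.0% and 10.0%), near the shares of all promoters. None of these genes passed the adjusted test of limma.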
